A study of Homo sapiens with 6 samples.

Results

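Voltage-gated calcium channels open when the cell membrane depolarizes and let calcium ions into the cell. The pore is an alpha1 subunit. A cytoplasmic beta subunit helps carry it to the membrane, an alpha2delta subunit and, in some channels, a gamma subunit join it, and the small GTPases of the RGK family bind the beta subunits and inhibit the channels. These channels are best known from muscle and nerve, where they couple depolarization to contraction and transmitter release.

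The genes described here were 8 channel subunits and 2 RGK inhibitors, 10 of the 39168 gene identifiers in the count table. The subunits were the pores CACNA1S and CACNA1H, the beta subunits CACNB1, CACNB3 and CACNB4, and the gamma subunits CACNG4, CACNG6 and CACNG8. The inhibitors were RRAD and GEM. The genes were taken by symbol from a fixed list. CACNA1S and RRAD stood on it because they changed strongly in opposite directions in these same libraries, and CACNA1S, CACNB4, CACNG6 and CACNG8 also belong to a list of differentially expressed MAPK pathway genes that the study drew from them. The differences of the 10 genes between the groups are therefore given as a description, with no p-value.

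RNA-seq was performed on CAL62, a human anaplastic thyroid carcinoma cell line labelled wild type and cultured in RPMI medium with serum. Erianin, a bibenzyl compound from Dendrobium orchids, was added at 50 nM for 48 h in 3 libraries, and 3 control libraries received DMSO, the solvent, for the same time. The labels do not say whether the 3 libraries of a group came from separate cultures, so the spread between them may be technical, and the study held 1 cell line, 1 dose and 1 time for RNA. Counts on named genes ranged from 25776301 to 34107727 per library.

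DMSO replicate 3 stood apart from the other DMSO libraries. Its distance to them on log2(CPM + 0.5) was 52.7, against 23.2 between DMSO replicates 1 and 2 and at most 20.6 among the erianin libraries, and it exceeded the 46.6 from DMSO replicates 1 and 2 to the erianin libraries. CPM is the count scaled to library size by TMM, and TPM is the authors' own level, which also allows for gene length. The test by edgeR covered 12821 genes, and a gene was called when its adjusted p was under 0.05 and its log2 fold change exceeded 0.5 in size. It called 1119 genes, 688 higher and 431 lower with erianin. The split depended on the scaling, with 822 higher and 299 lower under upper-quartile factors, 665 and 669 after a GC correction, and 1098 and 94 by limma on TPM. The calls of the 9 calcium channel and RGK genes tested were the same as in edgeR under upper-quartile factors and the GC correction.

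Of the 10 genes, 9 passed the low-count filter and 6 were called. RRAD, GEM and CACNB4 were higher with erianin, and CACNA1S, CACNG6 and CACNG8 were lower. Among all genes tested 8.73% were called, 5.37% higher and 3.36% lower; nothing is read from the comparison of the 10 genes with these shares, since the genes were chosen on this contrast. The groups did not overlap in CPM for 7 of the 10 genes, a pattern that 38.7% of all genes tested showed. The remaining channel gene, CACNG4, had 0 counts in all 6 libraries, for which a limit of 3 counts corresponds to 0.0857 to 0.123 CPM per library, counting error only. In bulk RNA, fewer cells expressing a gene and less of its RNA per cell cannot be told apart.

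**Figure D1:**
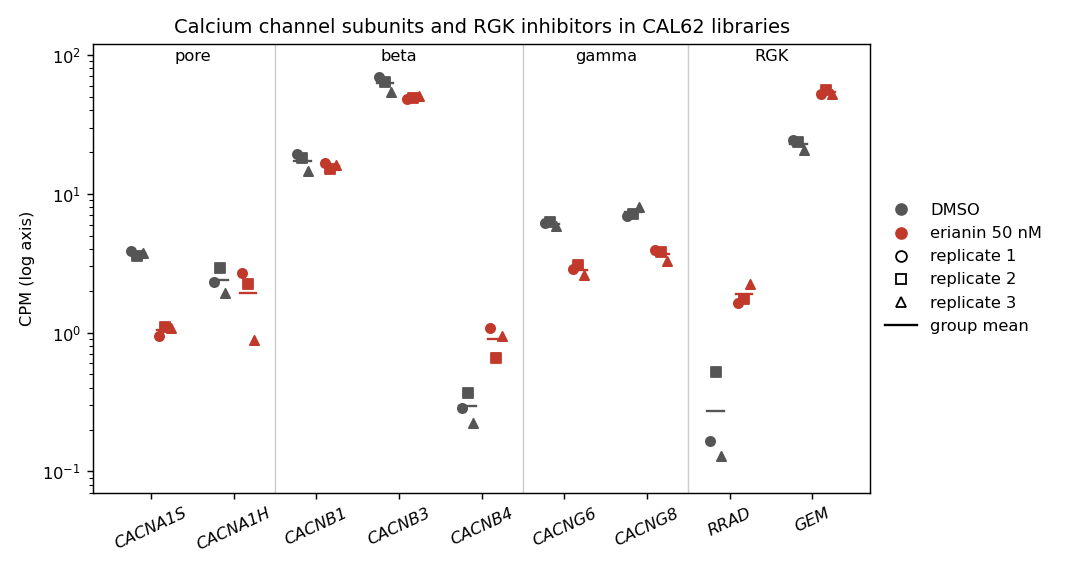
CPM of 9 genes in each library on a log axis, grouped as pore, beta, gamma and RGK genes; symbols are the replicates and lines the group means of 3 libraries. CACNA1S, CACNG6 and CACNG8 lie lower in all erianin libraries, RRAD, GEM and CACNB4 lie higher, and the replicates of CACNB1 and CACNA1H mix; CACNG4, at 0 counts throughout, is left out.

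CACNA1S encodes the pore of the L-type channel of skeletal muscle, the voltage sensor of excitation-contraction coupling. The gene lies on the minus strand of chromosome 1 at 201039512-201112566 (GENCODE release 29, GRCh38). It had 95, 115 and 116 counts in DMSO replicates 1 to 3 and 32, 38 and 38 in the erianin replicates. In CPM these were 3.90, 3.54 and 3.72 against 0.937, 1.09 and 1.08. All erianin libraries were low, all DMSO libraries were high, and the values within each group lay close together. The mean went from 3.72 ± 0.178 to 1.04 ± 0.0863 CPM (SD, n = 3), a log2 fold change of -1.84 ± 0.17 (SE) or 3.58-fold lower. This was the 2nd lowest log2 fold change of the 12821 genes tested.

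The sequence before the CACNA1S start is printed because this gene had the lowest log2 fold change of the channel genes and has a promoter entry in RefSeq (GRCh38.p14, minus strand, chr1:201112567-201112676). It is limited to the 110 bases upstream of the GENCODE start. The capitals mark the E-box CAGCTG, a motif read by muscle transcription factors among others.
CACNA1S: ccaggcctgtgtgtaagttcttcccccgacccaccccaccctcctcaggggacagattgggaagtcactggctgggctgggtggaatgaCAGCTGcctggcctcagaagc
The E-box, CAGCTG on either strand, was present in 14.0% of 35116 RefSeq promoter windows of 250 bases before the start. It also stood in a window of CACNB4, a gene called higher with erianin. A match is only a run of letters and was not tested as a site.

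CACNA1H encodes a low-voltage-activated, T-type pore. It lies on chromosome 16 at 1153121-1221772, plus strand. The counts were 56, 94 and 60 in DMSO and 91, 78 and 31 with erianin, or 2.30, 2.90 and 1.93 against 2.66, 2.23 and 0.885 CPM. The groups overlapped, and erianin replicate 3 was the lowest library. Its 31 counts had an exact Poisson 95% interval of 21.1 to 44.0, below the 73.3 to 112 of erianin replicate 1 and the 61.7 to 97.3 of erianin replicate 2. The log2 fold change was -0.30 ± 0.38, and without erianin replicate 3 it was 0.04.

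The pore genes were next compared as shares of the summed TPM of all 10 alpha1 genes, as a description of the mix of pores. CACNA1S made up 58.4%, 57.9% and 69.9% in DMSO and 26.2%, 32.3% and 34.3% with erianin. The mean share went from 62.0% ± 6.80 to 31.0% ± 4.22 (SD, n = 3). CACNA1F, the L-type pore known from the retina, took most of the remaining share, with 24.3% ± 5.80 and then 49.9% ± 2.93. CACNA1F itself did not pass the test, at 2.44 ± 0.811 and 2.74 ± 0.290 CPM (log2 fold change 0.18, adjusted p = 0.699). CACNA1H held 8.04% ± 1.43 and 11.5% ± 5.09. Thus CACNA1S was the leading pore gene in all 3 DMSO libraries and CACNA1F in all 3 erianin libraries. The summed alpha1 level was 2.94 ± 0.457 TPM in DMSO and 1.87 ± 0.103 TPM with erianin. The share rests on the lengths behind TPM. On CPM per kb of the longest coding transcript the mean share of CACNA1S was 43.5% in DMSO and 17.7% with erianin, and that of CACNA1F 28.0% and 46.9%, so the leading genes were the same.

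The beta genes ranged from the most to the least abundant of the 7 chosen subunits with counts. CACNB3, a beta subunit and the subunit gene with the highest TPM, lies on chromosome 12 at 48813794-48828941, plus strand. It had 69.8, 64.1 and 54.1 CPM in DMSO and 48.1, 49.4 and 51.0 with erianin. The groups did not overlap, but DMSO replicate 3 lay close to the erianin libraries. The means were 62.6 ± 7.91 and 49.5 ± 1.45 CPM, with a log2 fold change of -0.34 ± 0.11, under the fold threshold. In TPM, CACNB3 was 14.0, 12.9 and 9.97 in DMSO and 10.8, 10.9 and 11.6 with erianin, and there the groups overlapped at DMSO replicate 3, whose TPM column sums to 59.1% of its nominal total against 72.6% to 78.3% in the other libraries.

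CACNB1, the beta subunit that pairs with CACNA1S in skeletal muscle, lies on chromosome 17 at 39173456-39197703, minus strand. Its CPM was 19.4, 18.0 and 14.5 in DMSO and 16.7, 15.1 and 16.0 with erianin. The groups overlapped, and the log2 fold change was -0.11 ± 0.13. The muscle partner of CACNB1, CACNA1S, had a log2 fold change of -1.84 ± 0.17. CACNA1S was chosen for its change in these libraries, so the difference between the partners is only a description.

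CACNB4, a beta subunit best known from brain, was near the limit of detection. It lies on chromosome 2 at 151832768-152099475, minus strand. It had 7, 12 and 7 counts in DMSO and 37, 23 and 33 with erianin, or 0.287, 0.370 and 0.225 against 1.08, 0.658 and 0.942 CPM. All erianin libraries were higher than all DMSO libraries. The exact Poisson intervals nevertheless met, from 6.20 to 21.0 counts for DMSO replicate 2 and from 14.6 to 34.5 for erianin replicate 2. The log2 fold change was 1.59 ± 0.34. The call did not hold when any library other than DMSO replicate 3 was left out (log2 fold change 1.42 to 1.80), nor under the replicate block (1.56).

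CACNB3 and CACNB1 made up nearly all beta TPM. CACNB3 held 70.7% ± 0.506 in DMSO and 67.2% ± 1.58 with erianin, and CACNB1 29.2% ± 0.484 and 32.5% ± 1.46. CACNB3 led the beta class in every library. The beta sum was 17.4 ± 3.04 and 16.5 ± 0.569 TPM, with overlapping groups, and 80.4 ± 10.4 and 66.5 ± 1.41 in CPM, where they did not overlap.

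CACNG6 and CACNG8 encode gamma subunits. CACNG6 is a muscle-type gamma subunit, and CACNG8 belongs to the proteins that regulate AMPA-type glutamate receptors in brain. The genes stand in tandem on the plus strand of chromosome 19, CACNG8 at 53963040-53990215 and CACNG6 at 53992288-54012669, with 2073 bases from one to the next. RefSeq holds a promoter entry for CACNG6 and it is shown because the tandem genes moved together (GRCh38.p14, plus strand, chr19:53991387-53991636). The capitals mark the GC box GGGCGG, a motif bound by factors of the SP family.
CACNG6: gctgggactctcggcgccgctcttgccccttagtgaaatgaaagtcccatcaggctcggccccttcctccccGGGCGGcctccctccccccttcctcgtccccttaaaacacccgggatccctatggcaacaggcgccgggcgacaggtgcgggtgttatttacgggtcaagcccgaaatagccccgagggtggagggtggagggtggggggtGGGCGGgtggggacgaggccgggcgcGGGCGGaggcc
The GC box stood 3 times in this window, and 42.6% of the promoter windows held at least 1 on either strand. Windows of CACNA1S, CACNB1, CACNB3 and CACNB4 held it too. The full cyclic AMP response element TGACGTCA, which 1.65% of windows held, and the TATA box TATAAA, which 10.7% held, were absent from the 11 windows of the 5 genes with entries, CACNA1S, CACNB1, CACNB3, CACNB4 and CACNG6.

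CACNG6 had 149, 203 and 182 counts in DMSO and 98, 107 and 91 with erianin. In CPM this was 6.12, 6.25 and 5.84 against 2.87, 3.06 and 2.60. Each erianin library was well below each DMSO library, and the means of 6.07 ± 0.209 and 2.84 ± 0.233 gave a log2 fold change of -1.09 ± 0.14. CACNG8 had 6.94, 7.18 and 8.06 CPM in DMSO and 3.92, 3.81 and 3.28 with erianin. Again the groups were apart, with means of 7.39 ± 0.590 and 3.67 ± 0.341 and a log2 fold change of -1.01 ± 0.14. Both tandem genes were thus lower by similar amounts, 2.13-fold for CACNG6 and 2.01-fold for CACNG8. The gamma mix overlapped between the groups, with CACNG6 at 66.5% ± 2.68 and 64.8% ± 0.749 of gamma TPM, while the gamma sum went from 13.0 ± 0.599 to 7.16 ± 0.475 TPM. Whether reads that could fall on either gene were shared was not tested.

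**Figure D2:**
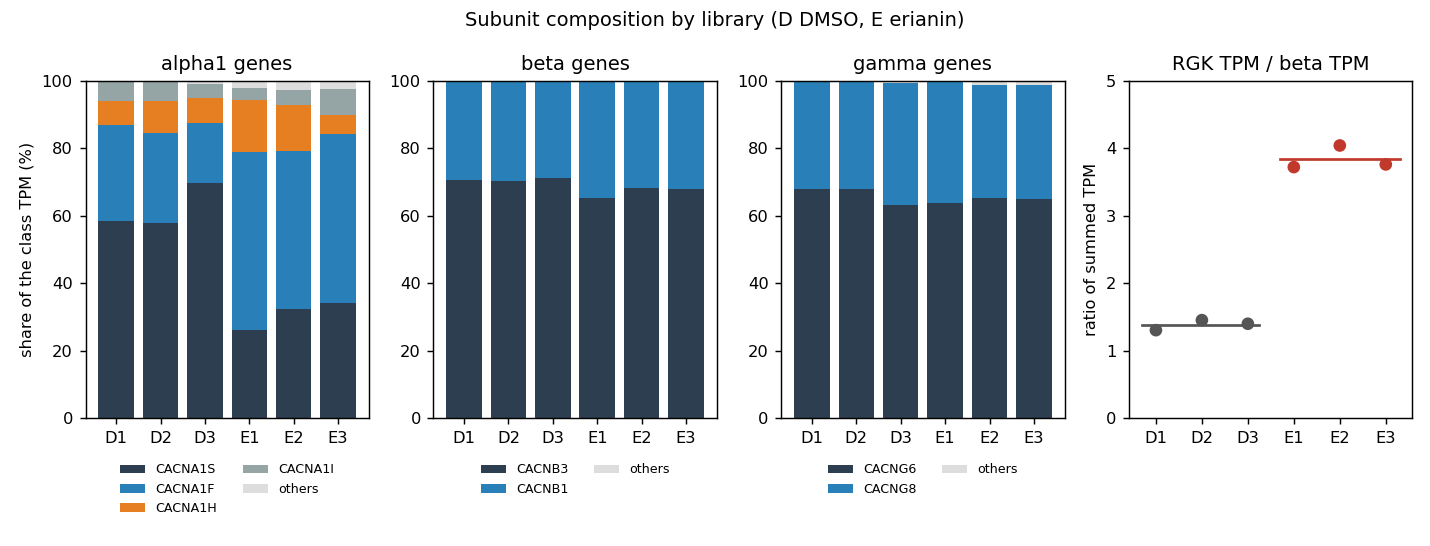
Share of each class's summed TPM taken by each gene in the 6 libraries (D, DMSO; E, erianin; the number is the replicate), and, at right, the ratio of summed RGK TPM to summed beta TPM with lines at the group means. CACNA1S takes 57.9% to 69.9% of alpha1 TPM in DMSO and 26.2% to 34.3% with erianin, while the beta and gamma mixes differ little and the mean RGK to beta ratio is 1.39 in DMSO and 3.84 with erianin.

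RRAD encodes the RGK protein Rad, first known from muscle. It lies on chromosome 16 at 66921679-66925644, minus strand. It had 4, 17 and 4 counts in DMSO and 56, 61 and 79 with erianin. In CPM these were 0.164, 0.524 and 0.128 against 1.64, 1.75 and 2.26. DMSO replicate 2 was the highest control, and it was still under every erianin library. Its 17 counts had an exact Poisson interval of 9.90 to 27.2, and the lowest erianin library, with 56 counts, one of 42.3 to 72.7. The mean went from 0.272 ± 0.219 to 1.88 ± 0.329 CPM, a log2 fold change of 2.73 ± 0.45 or 6.61-fold higher, the 34th highest of the genes tested. With so few control counts the size was uncertain. Without DMSO replicate 2 it was 3.66 and without DMSO replicate 3 it was 2.35, and the call was lost when any 1 erianin library was left out (2.58 to 2.81).

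GEM, the RGK gene on chromosome 8, was far more abundant. It had 598, 760 and 649 counts in DMSO and 1789, 1964 and 1847 with erianin. In CPM this was 24.6, 23.4 and 20.8 against 52.4, 56.2 and 52.7. The groups were widely apart and each was tight. The means of 22.9 ± 1.90 and 53.8 ± 2.12 CPM gave a log2 fold change of 1.23 ± 0.10, or 2.35-fold higher. Of the other RGK genes, REM2 had 1.14 ± 0.608 and 1.18 ± 0.184 CPM (log2 fold change 0.04, adjusted p = 0.963), and REM1 was not tested.

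GEM held 90.2% ± 4.75 of RGK TPM in DMSO and 91.6% ± 1.57 with erianin, and RRAD 1.40% ± 1.02 and 4.33% ± 0.748. RRAD thus had the larger fold change, and GEM carried most of the RGK transcripts in both groups. The summed RGK level was 24.1 ± 3.91 TPM in DMSO and 63.4 ± 1.81 TPM with erianin. RGK proteins act on beta subunits, so the sums of the classes were set against each other within each library. The ratio of RGK to beta TPM was 1.31, 1.46 and 1.40 in DMSO and 3.72, 4.04 and 3.76 with erianin. Every erianin library had the higher ratio, with means of 1.39 ± 0.0751 and 3.84 ± 0.175. On CPM per kb of the longest coding transcript the ratio was 0.401 ± 0.0191 and 1.15 ± 0.0489, so its level depends on the gene length used and does not say which RNA was in excess.

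**Figure D3:**
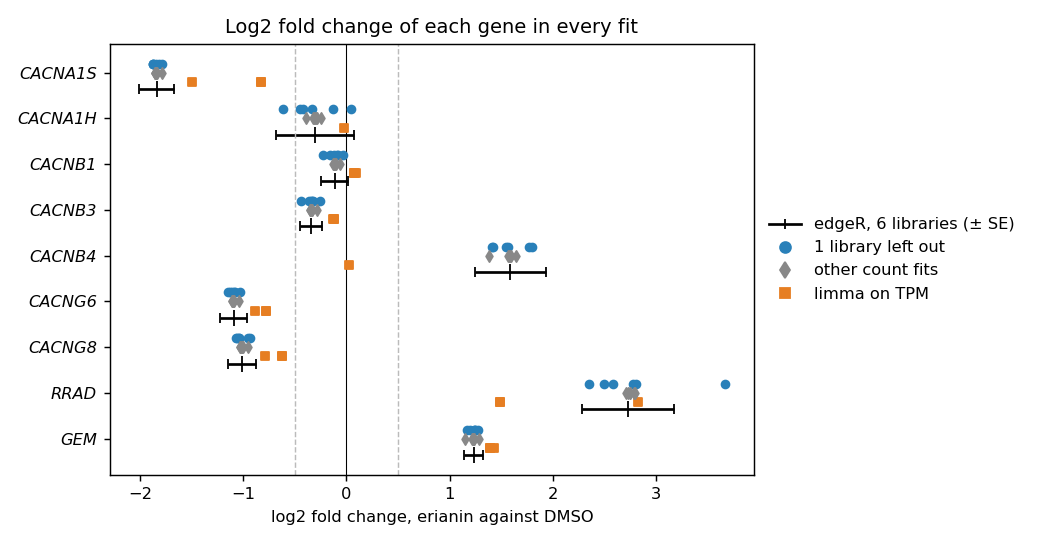
Log2 fold change of each gene, erianin against DMSO, in edgeR on 6 libraries (bars, SE) and in the other fits, with dashed lines at 0.5 in either direction. GEM, CACNG6, CACNG8 and CACNA1S stay outside the dashed lines in every fit, RRAD spreads from 1.48 to 3.66, and CACNB4 drops to 0.02 on log2(TPM + 1).

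Ordered by TPM, GEM led the list in both groups, at 21.7 ± 2.79 in DMSO and 58.0 ± 1.70 with erianin. CACNB3 followed with 12.3 ± 2.09 and 11.1 ± 0.440, then, in DMSO, CACNG6 with 8.66 ± 0.723, CACNB1 with 5.09 ± 0.958, CACNG8 with 4.33 ± 0.140, CACNA1S with 1.80 ± 0.122, RRAD with 0.353 ± 0.293 and CACNA1H with 0.237 ± 0.0584. CACNB1 overlapped CACNG8, and RRAD overlapped CACNA1H, across the DMSO libraries. With erianin CACNB1 had 5.36 ± 0.317, CACNG6 4.64 ± 0.316, RRAD 2.75 ± 0.517, CACNG8 2.47 ± 0.204, CACNA1S 0.575 ± 0.0489 and CACNA1H 0.218 ± 0.104 TPM. RRAD and CACNG8 overlapped there. RRAD thus stood below CACNA1S in every DMSO library and above it in every erianin library. Both genes were chosen for opposite changes in these libraries, so the crossing is only a description. CACNB4 was last, at 0.00658 ± 0.00190 and 0.0228 ± 0.00567 TPM. The length implied by its counts and TPM, scaled so that the median gene matched its annotated exons, was 113620 bases. That was 13.6 times its longest coding transcript, against 1.49 times for the median gene. It also exceeded the 36268 bases of its annotated exons, so it need not be a gene length. The reason for its low TPM was not tested. The ratio was 4.79 for CACNB3, 3.10 for CACNA1H, 2.30 for CACNB1, and from 0.492 for CACNG8 to 1.26 for RRAD in the rest. The order therefore depends on the length used. On CPM per kb of the longest coding transcript, CACNB3 led in DMSO with 23.2 ± 2.93 against 10.4 ± 0.862 for GEM, and GEM led with erianin with 24.4 ± 0.961 against 18.4 ± 0.536. CACNB1 then stood above CACNG6 in both groups, with 4.62 ± 0.669 and 3.28 ± 0.113 in DMSO. RRAD again stood below CACNA1S in every DMSO library and above it in every erianin library, and CACNB4 was again last.

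Most of the other voltage-gated channel genes had too few counts to be tested. The family holds 26 subunit genes, of which 11 were tested and 5 had 0 counts in all libraries. Of the 18 subunit genes outside the chosen list, 4 were tested, and edgeR and DESeq2 each called 0 of them, with 0 at an unadjusted p under 0.05 in edgeR. CACNA2D1, an alpha2delta subunit, had 9.52 ± 2.28 and 7.70 ± 0.688 CPM (log2 fold change -0.31, adjusted p = 0.301) and held 96.8% and 94.8% of alpha2delta TPM. CACNA2D2, of the same class, had a log2 fold change of 0.37 (adjusted p = 0.452). CACNA1I, a T-type pore, had 0.839 ± 0.227 and 0.470 ± 0.164 CPM (log2 fold change -0.82, adjusted p = 0.169), and it was called lower when DMSO replicate 3 was left out.

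The other calcium genes were taken from 7 lists, the other channel subunits and RGK genes among them. The lists held 102 genes, of which 72 were tested, and their median log2 fold change was 0.02, against 0.001 over all genes. edgeR called 0 of them higher and 1 lower, or 1.39%, against 8.73% of all genes tested. In edgeR 21 had an unadjusted p under 0.05, and DESeq2 called 3. The called gene was ORAI3, a pore of store-operated calcium entry, at 19.7, 19.9 and 12.9 CPM in DMSO and 10.1, 11.1 and 11.6 with erianin (log2 fold change -0.68 ± 0.18, adjusted p = 0.043). DMSO replicate 3 lay near the erianin values, and the call was lost under upper-quartile factors, limma on TPM, the replicate block and without any library other than DMSO replicate 3. Without DMSO replicate 3, edgeR called 4 genes of the lists higher and 5 lower.

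Among proteins that bind the channels, 14 of 18 genes were tested and none was called by edgeR, while DESeq2 called 1, JPH2, a junctophilin that ties the surface membrane to calcium stores (log2 fold change -0.49, edgeR adjusted p = 0.077). Calmodulin binds the channel's tail and lets calcium feed back on it, and the signs of CALM2 and CALM3 differed. CALM2 had 242 ± 19.3 and 322 ± 13.8 CPM (log2 fold change 0.41, adjusted p = 0.017), and CALM3 had 744 ± 24.7 and 597 ± 5.96 CPM (log2 fold change -0.32, adjusted p = 0.019). Both passed on p and stayed under the fold threshold. STAC and STAC3, of a family of L-type channel adaptors, did not pass. STAC had a log2 fold change of -0.13 (adjusted p = 0.465) and STAC3 one of 0.32 (adjusted p = 0.498).

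All 11 genes of proteins that bind RGK proteins were tested, and edgeR and DESeq2 each called 0 of them, with 1 at an unadjusted p under 0.05 in edgeR. The 14-3-3 genes YWHAZ and YWHAE, the most abundant, had log2 fold changes of -0.02 (adjusted p = 0.936) and -0.12 (adjusted p = 0.466). Of 19 genes of calcium stores and store-operated entry, 15 were tested and 1 was called, ORAI3. Among these, ITPR3, an inositol trisphosphate receptor that releases stored calcium, had 861 ± 12.0 and 645 ± 15.0 CPM (log2 fold change -0.42, adjusted p = 0.008). ATP2A2, the pump that refills the stores, had 522 ± 7.91 and 628 ± 30.2 CPM (log2 fold change 0.27, adjusted p = 0.040). CALR, a calcium-binding chaperone of the stores, did not pass (adjusted p = 0.097).

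For calcium extrusion and mitochondrial uptake, 9 of 14 genes were tested, edgeR and DESeq2 each called 0, and 2 had an unadjusted p under 0.05 in edgeR. SLC8A2, a sodium-calcium exchanger, had a log2 fold change of -0.41 (adjusted p = 0.029). For calcium-dependent signalling, 18 of 20 genes were tested and edgeR called 0, with 7 at an unadjusted p under 0.05, while DESeq2 called 1, NFATC4. CRTC1 and CRTC3, CREB coactivators that calcineurin dephosphorylates, had log2 fold changes of -0.44 (adjusted p = 0.018) and -0.34 (adjusted p = 0.031). CRTC2, of the same family, had 96.3 ± 7.87 and 96.6 ± 3.80 CPM (log2 fold change 0.004, adjusted p = 0.985). CAMKK2, a calcium-dependent kinase gene, had a log2 fold change of -0.25 (adjusted p = 0.078). In edgeR all of these, NFATC4 among them (log2 fold change -0.49, adjusted p = 0.055), were under the fold threshold.

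**Figure D4:**
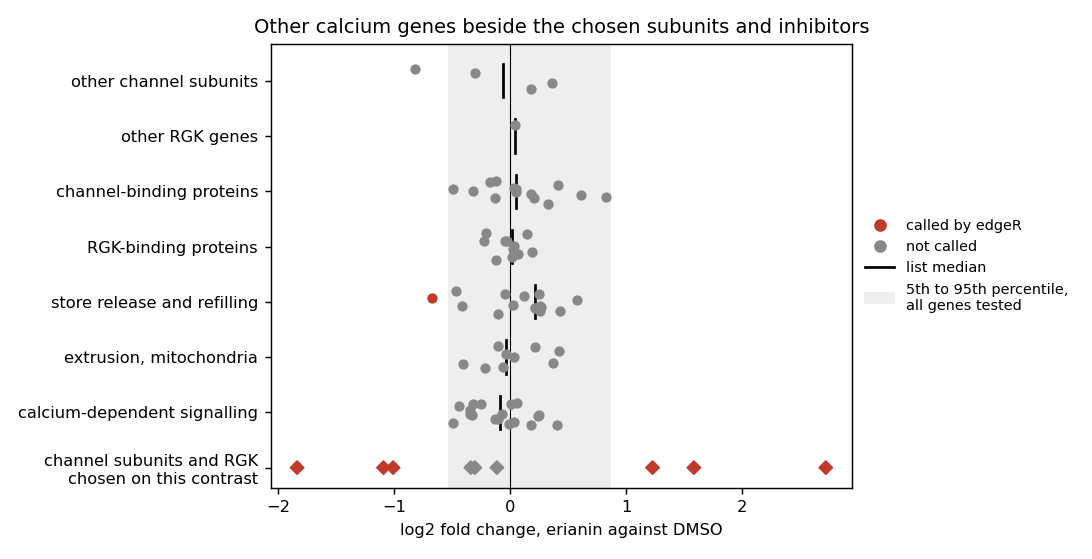
Log2 fold change, erianin against DMSO, of the tested genes in 7 calcium lists (circles) and of the 9 channel and RGK genes chosen on this contrast (diamonds); red marks an edgeR call, vertical bars the list medians, and the grey band the range from -0.53 to 0.87 that holds all genes between the 5th and 95th percentiles. ORAI3 is the 1 called circle among 72, and 6 of the 9 diamonds are called, against 8.73% of all genes tested. The diamonds were chosen on this contrast, so nothing is read from their count.

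Several of the chosen genes are known from muscle or nerve, so markers of those cells were read in the same libraries. Of 18 skeletal muscle markers 17 were in the table and 4 were tested, with 0 called by edgeR and by DESeq2 and 1 at an unadjusted p under 0.05 in edgeR. Their summed level was 66.5 to 77.8 CPM in DMSO and 65.5 to 71.7 CPM with erianin, most of it from TNNT1, a slow-muscle troponin (61.9 ± 6.49 and 55.7 ± 3.62 CPM, adjusted p = 0.364). The sum hides smaller markers. MYH3 was the 1 tested marker with a positive log2 fold change, against 3 negative (0.60, adjusted p = 0.130). DES had 2, 0 and 2 counts in DMSO and 7, 14 and 6 with erianin. ACTA1 had 1, 2 and 2 against 3, 7 and 8, and both had too few counts to be tested. The muscle regulators MYOG, MYF5 and MYF6 were at 0 in all libraries and MYOD1 had 1 count in all. RYR1, the calcium release channel that CACNA1S gates in muscle, had 6.42 ± 1.34 and 5.98 ± 0.635 CPM (log2 fold change -0.10, adjusted p = 0.761).

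Of 10 neuron markers 9 were in the table and 5 were tested. SYP, a synaptic vesicle protein, had 1.11, 0.616 and 0.514 CPM in DMSO and 3.92, 3.32 and 2.71 with erianin (log2 fold change 2.18, adjusted p = 0.006). RBFOX3, a splicing factor of neurons, went the other way, from 59.4 ± 0.148 to 38.8 ± 0.820 CPM (log2 fold change -0.61, adjusted p = 0.004). The summed neuron level, most of it from RBFOX3, was 62.4 to 63.2 CPM in DMSO and 46.4 to 46.8 CPM with erianin, with 2 markers at 0 in all libraries. The other 4 tested markers had positive log2 fold changes, of which only that of SYP was called, and the median of the 5 was 0.90. Thyroid identity was weak. Of 10 thyroid follicular markers 2 were tested, TSHR and NKX2-1 were at 0 counts in all libraries, and PAX8 had 676 ± 55.2 CPM in DMSO and 428 ± 7.88 with erianin (log2 fold change -0.66, adjusted p = 0.004). FOXE1, the other tested marker, had a log2 fold change of 0.03 (adjusted p = 0.963). The summed thyroid level, nearly all of it PAX8, was 644 to 742 CPM in DMSO and 421 to 435 CPM with erianin. The part of these levels in the channel and RGK values was not tested.

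The genes whose profile over the 6 libraries was most like that of CACNA1S, among 11553 genes with a mean of at least 1 CPM, were LTBP2, LOXL1 and AHNAK2, with mean absolute differences of 0.132, 0.143 and 0.172 on centred log2 CPM. LTBP2, a TGF-beta binding protein of the matrix, had 82.7, 94.1 and 87.1 CPM in DMSO and 37.1, 37.9 and 37.0 with erianin. For RRAD they were FHDC1, SLC43A2 and GPC1, at 0.101, 0.103 and 0.114. SLC43A2, an amino acid transporter, had 6.73, 8.69 and 5.27 CPM in DMSO and 21.0, 21.3 and 22.7 with erianin, with DMSO replicate 2 the highest control as in RRAD. The likeness covers 6 libraries in both groups, and these genes share library depth and the contrast with CACNA1S and RRAD.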

How the data were processed

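The reads came from a BGISEQ-500 run on TRIzol-prepared total RNA. For the 6 libraries the deposited tables hold raw counts of reads on each gene and TPM, both made by the authors. The submitters' processing notes name fastp 0.23.2, STAR 2.7.10, featureCounts 2.0.1, StringTie 2.2.1 and GRCh38 without roles; strand use in counting is not given in the sources used here. Of 65807 rows in the count table, 26480 carry no identifier and hold 0.00385% to 0.00515% of counts; they were left out. Of rows with the same identifier, the one with most counts was taken for a gene.

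Counts were analysed in R 4.3.3 with edgeR 4.0.16 (TMM, filterByExpr, quasi-likelihood F test, group as the only term, Benjamini-Hochberg adjustment over 12821 genes; a call needs an adjusted p under 0.05 and a log2 fold change over 0.5 in size). Alternatives were DESeq2 1.42.0, limma 3.58.1 on log2(TPM + 1), other scalings and filters, a GC offset, a replicate block, and each library left out in turn. The scripts were tested on simulated data. Poisson intervals are exact, at 95%, and cover counting error only. Shares and levels in CPM per kb were alternatives chosen once the data had been seen. The genes and gene lists were chosen with earlier results of these data known. Named were all 10 genes, the called genes of each list (at most 5) and its 2 most abundant, the 3 nearest profiles of CACNA1S and RRAD, and annotated genes that overlap one of the 10; other genes were named after their values were seen, and some genes are not reported here. Positions are from GENCODE release 29 and promoters from RefSeq, which held 5 of the 10 genes.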

Additional observations from a re-analysis of the deposited data

How the results depend on the processing

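Calls of all genes moved with the processing. By limma on TPM they were 1098 higher and 94 lower with a pseudocount of 1, 1207 and 110 with 0.1, and 1057 and 88 with no filter, and all genes shifted by a median of 0.175, 0.197 and 0.117 on the log2 scale. The GC offset gave 669 lower. Each library left out in turn gave 172 to 1485 higher and 126 to 797 lower, both highest without DMSO replicate 3. Deviations from the group means were nearly uncorrelated between libraries of the same replicate number (correlations of -0.00664, 0.00767 and -0.0494). DMSO replicate 3 stood apart and weighs on these deviations, so the check could miss a pairing. With the replicate block 384 genes were higher and 281 lower, with 2 of the channel and RGK genes higher and 3 lower.

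CACNA1S, CACNG6, CACNG8 and GEM were called in the same direction in all 16 alternatives, at -1.88 to -0.83, -1.15 to -0.78, -1.07 to -0.62 and 1.15 to 1.43. RRAD was called in 12 of 15 and CACNB4 in 6 of 13. At least 10 counts in every library left 1 higher call, GEM, since the filter removes RRAD and CACNB4, and leaving out a library gave 1 to 3. CACNB3 was not called in any alternative, CACNB1 was positive on the 3 TPM fits (up to 0.09), and CACNA1H was positive only without erianin replicate 3. Of the calcium lists, 3 genes were higher and 0 lower in each TPM fit, 1 was higher with the GC offset, 3 were lower by DESeq2, 2 with no filter, and 0 with upper-quartile factors or the replicate block. Leaving out a library gave 0 to 4 higher and 0 to 5 lower, 4 and 5 without DMSO replicate 3.

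On CPM and on CPM per kb of coding transcript, the mean share of CACNA1S was 39.2% and 43.5% in DMSO and 15.6% and 17.7% with erianin. CACNB3 was 78.0% and 83.3%, then 74.4% and 80.7%. CACNG6 was 45.1% and 79.3%, then 43.4% and 77.9%. The RGK to beta ratio was 0.304 and 0.401, then 0.856 and 1.15. DMSO counts of 4 to 17 for RRAD and 7 to 12 for CACNB4 limit both, and the cause of the other moves was not tested.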

Other observations

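ASCL5, a basic helix-loop-helix gene 1387 bases from CACNA1S on the same strand, was named after its values were seen. It had 15, 19 and 14 counts in DMSO and 38, 44 and 34 with erianin. Its groups did not overlap, and its direction was opposite to that of CACNA1S (log2 fold change 1.02 ± 0.26, adjusted p = 0.038 by edgeR). TPSG1, which overlaps CACNA1H on the opposite strand, had 0 counts in all 6 libraries. RPL19, 2580 bases from CACNB1 on the opposite strand, had 36748 to 50659 counts and a log2 fold change of -0.02, and DDX23, 823 bases from CACNB3 on the opposite strand, one of 0.01.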
